A study of Mus musculus with 4 samples.

Results

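Genes that make, degrade or act on cyclic AMP (cAMP) and cyclic GMP (cGMP) were read in the RNA of mouse cells labelled as cancer-associated fibroblasts (CAFs), the connective tissue cells of a tumour. They were chosen by symbol, as every gene of the count table named as a phosphodiesterase (Pde), adenylyl cyclase (Adcy), guanylyl cyclase (Gucy), natriuretic peptide receptor (Npr1 to Npr3), cGMP-dependent kinase (Prkg1, Prkg2) or subunit of the cAMP-dependent kinase (Prkac, Prkar). This gave 56 of the 23377 genes in the table. Of these, 24 belong to the cAMP arm, 21 to the cGMP arm and 8 are phosphodiesterases that act on both nucleotides. The other 3, Pde4dip, Pde6d and Pde12, match by symbol but encode no enzyme of cyclic nucleotide turnover. Pde4dip encodes a centrosome and Golgi scaffold, Pde6d a carrier of prenylated proteins and Pde12 a mitochondrial enzyme that shortens poly(A) tails.

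The libraries were 2 biological replicates of CAFs labelled as associated with resistant tumours (Res4) and 2 biological replicates of CAFs labelled as associated with normal tumours (WTA), all made from polyadenylated RNA. The series title places them in a study of lactate secretion and resistance to drugs against MET and EGFR. The labels used here give no strain, age, tumour line, treatment or sorting gate, and each group carries 1 name, so whether its replicates came from 1 tumour or culture is not known. They describe a TruSeq and a SMART-seq2 library preparation without saying which library had which.

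Adenylyl cyclases at the membrane make cAMP when a stimulatory G protein couples them to a receptor, and cAMP releases the catalytic subunits of protein kinase A (PKA) from its regulatory subunits. cGMP is made by soluble guanylyl cyclase, which binds nitric oxide, and by membrane guanylyl cyclases that are themselves natriuretic peptide receptors, and it acts through the cGMP-dependent kinases (PKG). Phosphodiesterases end both signals, and some of them let one nucleotide control the breakdown of the other. In fibroblasts cAMP is best known for restraining proliferation and matrix production.

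Libraries held 2845237 and 2785936 reads in resistant tumour CAFs and 3948066 and 5558541 reads in normal tumour CAFs, of which the 56 genes took between 0.197% and 0.224%. A count of 0 allows up to 3 reads, or 0.540 to 1.08 CPM by library total, where CPM is the read count scaled to a common library depth, and covers counting error only. Of the 12 pan-fibroblast markers 11 were tested and all 11 were higher in resistant tumour CAFs, with summed levels of 7230 and 7030 CPM, against 2956 and 2495 CPM in normal tumour CAFs. Of the markers that define fibroblasts, Pdgfra had 1115 and 878 CPM in resistant tumour CAFs, against 29.6 and 7.38 CPM in normal tumour CAFs, and Dcn had 92.1 and 127 CPM in resistant tumour CAFs, against 0.741 and 0.168 CPM in normal tumour CAFs. The collagen gene Col1a1 had 1683 and 1698 CPM in resistant tumour CAFs, against 1177 and 962 CPM in normal tumour CAFs. The markers of Schwann cells and neural crest went the other way, with 8 of 9 tested markers lower and 1, Pmp22, higher. Their sum was 269.9 and 283 CPM in resistant tumour CAFs, against 1580 and 1403 CPM in normal tumour CAFs. Without Pmp22 it was 33.0 and 24.1 CPM in resistant tumour CAFs, against 1444 and 1280.4 CPM in normal tumour CAFs. Sox10, a neural crest factor, had 0.758 and 0.366 CPM in resistant tumour CAFs, against 184 and 138 CPM in normal tumour CAFs. The low Dcn and Pdgfra and the high Sox10 of the libraries labelled normal go against a fibroblast label. Col1a1 and the summed fibroblast markers were still high there, so the markers do not settle the identity. The name "normal tumour CAFs" is used below as the labels give it and not as an identity the markers bear out. Smooth muscle and pericyte markers summed to 651 and 811 CPM in resistant tumour CAFs, against 1089 and 952 CPM in normal tumour CAFs, with 2 of 10 tested markers higher and 2 lower. Endothelial markers summed to at most 5.93 CPM in any library, with none of 9 tested. Macrophage and leukocyte markers summed to 20.1 and 28.9 CPM in resistant tumour CAFs, against 8.40 and 9.57 CPM in normal tumour CAFs, with Lyz2 called higher of 3 tested and no read of Ptprc or Emr1. Epithelial markers summed to 45.5 and 63.7 CPM in resistant tumour CAFs, against 9.63 and 9.23 CPM in normal tumour CAFs, with Krt19 called higher as the 1 tested and no read of Epcam or Cdh1. Melanocyte markers summed to 41.7 and 27.8 CPM in resistant tumour CAFs, against 215 and 176 CPM in normal tumour CAFs, with Sox10 called lower of 3 tested and no read of Tyrp1, Dct or Mlana. Sox10 stands in this list too, and without it the sums overlapped, at 40.9 and 27.4 CPM in resistant tumour CAFs and 31.4 and 38.1 CPM in normal tumour CAFs. The fibroblast, Schwann cell and neural crest lists moved with the groups and so with every result below, and their part in those results was not tested. In bulk RNA, fewer cells of a type and less RNA per cell cannot be told apart.

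Reads were found for 52 of the 56 genes, and 32 passed the filter on low counts and were tested. Fold changes are log2 of resistant over normal ± standard error (SE) from edgeR's quasi-likelihood test, and a gene is called higher or lower at a Benjamini-Hochberg adjusted p under 0.05 over all 12001 genes tested. By this test 16 of the 32 were called, against 29.4% of all genes tested. Of these, 6 were higher, against 15.5% of all genes, and 10 were lower, against 13.9%. Each of the 16 differed by at least 2-fold, as did 3287 of the 3525 genes called over all genes tested. Replicate ranges did not overlap for 26 of the 32 tested genes, against 64.7% of all tested genes. The median log2 fold change was 0.24 over the 32 and -0.0036 over all genes tested. A gene that passes the filter only through the group where it is high has to differ, so these counts describe the tested genes and not all 56. An exact permutation test of a single gene with 2 libraries against 2 cannot go below a p of 0.333.

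Of the cGMP arm's 21 genes 5 were tested, of which 4 were called lower and none higher. Over all genes tested 13.9% were called lower and 15.5% higher, and these shares stand beside the counts of every class and family below. Of the 4, Gucy1a2 had no resistant read and Npr3 had 4 and 8, so both passed the filter only through the normal libraries. At an unadjusted p under 0.05 there was 1 higher gene, Npr2, which DESeq2 did not call and limma-voom did. In the cAMP arm 5 of 19 tested genes were called higher and 3 lower. Among the dual-substrate phosphodiesterases 1 of 5 was higher and 2 were lower. Of the 3 genes that match by symbol only, 1 was lower. Summed per kilobase of exon, the cAMP arm stood at 271 and 279.6 CPM per kb in resistant tumour CAFs, against 212 and 194 CPM per kb in normal tumour CAFs. The cGMP arm stood at 26.6 and 25.9 CPM per kb in resistant tumour CAFs, against 52.5 and 55.4 CPM per kb in normal tumour CAFs. The groups did not overlap in either sum, and their means differed by 1.36-fold in the cAMP arm and by 2.06-fold, the other way, in the cGMP arm. Each sum rests largely on 1 gene. Prkar1a, which was not called, made up 49.4% of the cAMP sum in resistant and 46.1% in normal tumour CAFs. Prkg2 made up 51.0% of the cGMP sum in resistant and 59.9% in normal tumour CAFs.

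**Figure D1:**
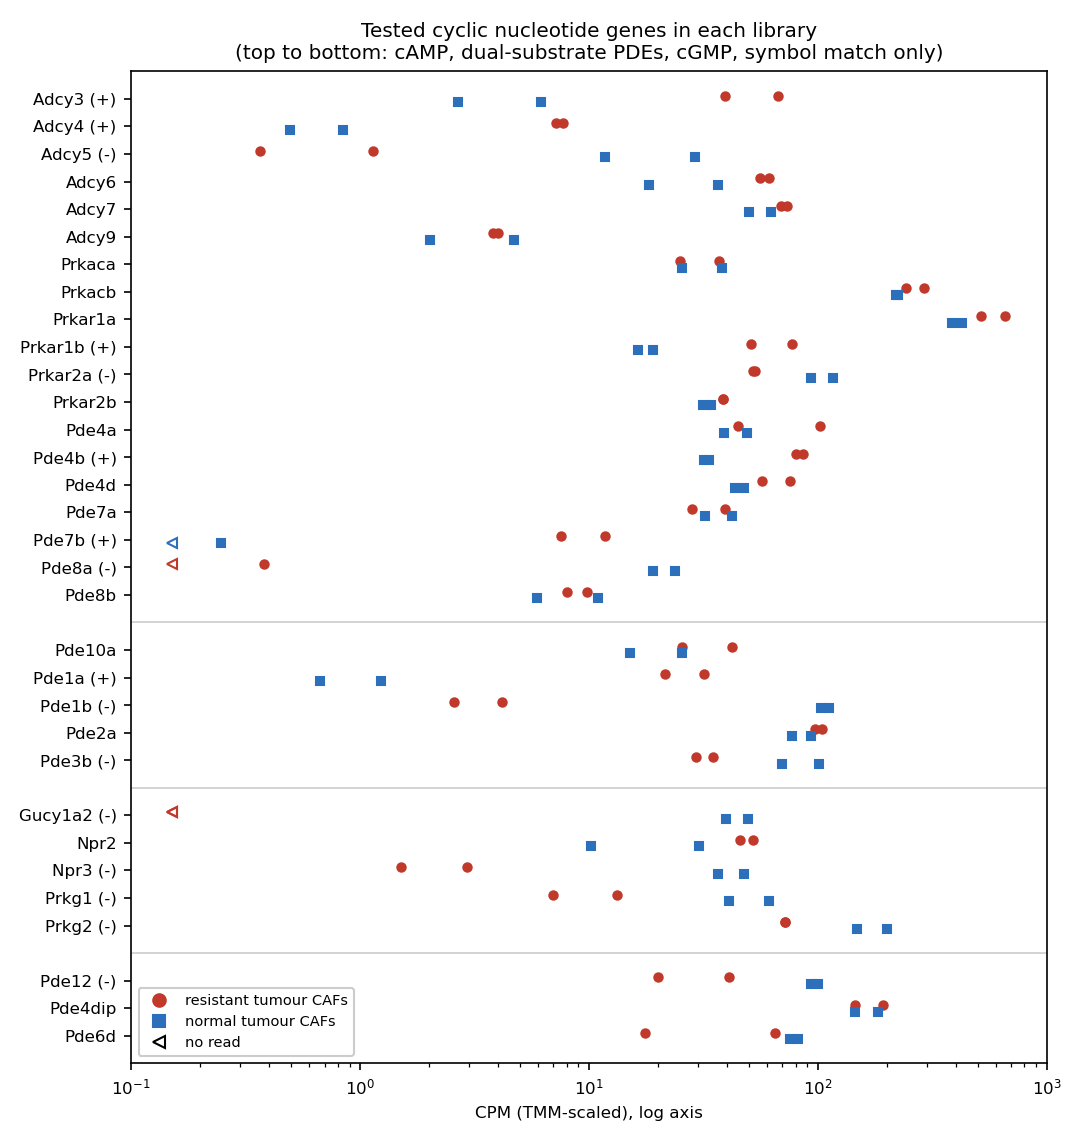
CPM of the 32 tested genes in each library on a log axis, with resistant tumour CAFs as circles and normal tumour CAFs as squares; an open triangle marks no read, and + or - marks a gene called higher or lower. The resistant libraries lie to the left for Pde1b, Pde8a, Gucy1a2 and Npr3 and to the right for Adcy3, Pde1a and Pde7b, while both groups share 1 range for Prkaca and Pde7a.

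Promoters are shown for the called genes at the ends of the range of fold changes, among those with 1 annotated promoter window: Gucy1a2 and Pde8a, the most lowered, and Pde7b, the most raised. Prkar1a is added as the only gene, among the 45 of the 56 with an annotated window, with a full cAMP response element, TGACGTCA, to which the factor CREB binds. Each window runs from 250 bases before to 50 bases after the start of the gene, 5′ to 3′ on the gene's strand, from RefSeq on GRCm38.p6. Capitals mark TGACG, the core of the element, and the full element where it is present.
Gucy1a2, chr9:3532099-3532398, plus strand: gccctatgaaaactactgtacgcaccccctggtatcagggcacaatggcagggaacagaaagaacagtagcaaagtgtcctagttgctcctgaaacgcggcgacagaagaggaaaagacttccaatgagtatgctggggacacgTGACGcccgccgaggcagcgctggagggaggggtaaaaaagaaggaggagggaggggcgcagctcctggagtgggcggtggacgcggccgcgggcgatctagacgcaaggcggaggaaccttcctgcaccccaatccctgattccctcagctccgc
Pde8a, chr7:81213015-81213314, plus strand: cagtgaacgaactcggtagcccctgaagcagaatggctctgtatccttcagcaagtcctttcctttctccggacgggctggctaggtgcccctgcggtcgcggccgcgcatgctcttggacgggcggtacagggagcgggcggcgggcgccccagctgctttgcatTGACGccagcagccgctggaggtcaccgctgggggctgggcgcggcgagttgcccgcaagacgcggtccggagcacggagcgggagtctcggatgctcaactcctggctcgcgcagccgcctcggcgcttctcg
Pde7b, chr10:20548279-20548578, minus strand: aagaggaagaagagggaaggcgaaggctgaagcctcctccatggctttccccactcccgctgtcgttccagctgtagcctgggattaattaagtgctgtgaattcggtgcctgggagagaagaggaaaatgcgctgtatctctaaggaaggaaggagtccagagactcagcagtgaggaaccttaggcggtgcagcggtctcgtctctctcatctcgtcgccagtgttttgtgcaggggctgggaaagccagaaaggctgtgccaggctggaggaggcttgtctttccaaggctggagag
Prkar1a, chr11:109650612-109650911, plus strand: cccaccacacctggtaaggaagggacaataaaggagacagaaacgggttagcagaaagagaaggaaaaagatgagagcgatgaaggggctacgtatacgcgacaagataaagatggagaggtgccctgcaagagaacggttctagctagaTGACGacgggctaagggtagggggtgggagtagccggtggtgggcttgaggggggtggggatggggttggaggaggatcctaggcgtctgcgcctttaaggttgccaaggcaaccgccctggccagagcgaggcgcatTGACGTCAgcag
The 45 genes have 86 windows in all, and the other 11 genes were not searched. TGACGTCA, which reads the same on both strands, was present in 2 of these windows (2.33%), both of them overlapping windows of Prkar1a, and in 1.79% of the windows of all genes. The core TGACG, searched on both strands and contained in the full element, was present in 20 of the 86 windows (23.3%), against 20.8% of the windows of all genes. Counted by gene the core was found in 18 of 45 genes (40.0%), against 23.0% of all genes with a window. A gene with more windows has more places for a match, and the groups differ in this. The 45 genes have 86 windows, against 32851 windows for all 27025 genes. The core was present in 3 of the 6 genes called higher and in 4 of the 8 genes called lower that have a window. The 3 were Pde1a, Pde4b and Prkar1b, with 4, 4 and 5 windows. The 4 were Gucy1a2, Npr3, Pde8a and Prkar2a, with 1 window each. These matches describe letters in a window and are not shown to be bound.

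Receptors that raise cAMP were read from a list of 32 stimulatory G protein-coupled receptors, of which 7 were tested, 5 were called higher and 1 lower. These counts, and those of the other lists below, stand against 15.5% of all genes tested called higher and 13.9% called lower. Adcyap1r1, the receptor for the neuropeptide PACAP, had 118 and 84.9 CPM in resistant tumour CAFs, against 2.47 and 0.839 CPM in normal tumour CAFs. Its log2 fold change was 5.99 ± 0.56 (adjusted p = 1.34e-05), or 6.79 without normal replicate 1 and 5.29 without normal replicate 2. Calcrl, the receptor for CGRP and adrenomedullin, had 57.6 and 63.3 CPM in resistant tumour CAFs, against 2.96 and 5.54 CPM in normal tumour CAFs (3.79 ± 0.47, adjusted p = 8.62e-05). The prostacyclin receptor Ptgir had 38.3 and 37.3 CPM in resistant tumour CAFs, against 3.46 and 4.70 CPM in normal tumour CAFs (3.19 ± 0.46, adjusted p = 2.35e-04). The adenosine receptor Adora2b had 40.6 and 49.0 CPM in resistant tumour CAFs, against 6.42 and 6.04 CPM in normal tumour CAFs (2.84 ± 0.43, adjusted p = 3.58e-04). In these 4 receptors the groups were far apart. The adhesion receptor Gpr126 was also called higher, with 23.9 and 6.22 CPM in resistant tumour CAFs, against 2.47 and 2.18 CPM in normal tumour CAFs, but missed the threshold without resistant replicate 1 (log2 fold change 1.42, adjusted p = 0.146; 3.35 without resistant replicate 2). Gpbar1, the bile acid receptor and the gene called lower, had at most 4.53 CPM in any library and missed the threshold with DESeq2 (adjusted p = 0.23), without resistant replicate 2 (log2 fold change -1.51, adjusted p = 0.20) and without either normal replicate (adjusted p = 0.148 and 0.225).

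Among the 8 G protein subunits that act on the cyclases, 7 were tested, none was called higher and 2 were lower. The count of higher genes was also 0 at an unadjusted p under 0.05, with DESeq2 and with limma-voom. Gnas, the stimulatory subunit itself, had 324 and 252 CPM in resistant tumour CAFs, against 261 and 238 CPM in normal tumour CAFs. Its log2 fold change of 0.21 missed the threshold (adjusted p = 0.577). The inhibitory subunit Gnai1 had no read in either resistant library, against 31 and 78 reads in the normal libraries, which puts resistant tumour CAFs at least 19.5-fold lower, counting 3 reads over the group (adjusted p = 4.24e-04). The olfactory-type subunit Gnal was called lower, at 2.65 and 3.66 CPM in resistant tumour CAFs and 11.1 and 7.89 CPM in normal tumour CAFs (adjusted p = 0.0459), and was lost with DESeq2 (adjusted p = 0.17), limma-voom (adjusted p = 0.0581) and without any 1 library.

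Of the 10 adenylyl cyclases 6 were tested, 2 were called higher and 1 lower. Adcy3, the cyclase of olfactory neurons and primary cilia, had 67.1 and 39.5 CPM in resistant tumour CAFs, against 6.17 and 2.69 CPM in normal tumour CAFs. Both resistant libraries were above both normal ones, and the log2 fold change was 3.62 ± 0.53 (adjusted p = 2.76e-04), or 4.22 without normal replicate 1. Exons of Adcy3 share 22.1% of their bases with Cenpo, a centromere gene on the other strand, and the sources used here do not state whether counting used strand. Cenpo had 30.7 and 35.5 CPM in resistant tumour CAFs, against 20.99 and 25.2 CPM in normal tumour CAFs, and was not called (0.52 ± 0.40, adjusted p = 0.371). Adcy4, of the group of cyclases stimulated by G protein βγ subunits, had 7.202 and 7.68 CPM in resistant tumour CAFs, against 0.494 and 0.839 CPM in normal tumour CAFs (3.37 ± 0.63, adjusted p = 0.00148). Adcy5, which calcium and inhibitory G proteins restrain, went the other way.

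Adcy5 had 1.14 and 0.366 CPM in resistant tumour CAFs, against 29.1 and 11.7 CPM in normal tumour CAFs. The groups were far apart although replicates differed by 3.11-fold in resistant and 2.48-fold in normal tumour CAFs, and the log2 fold change was -4.71 ± 0.77 (adjusted p = 5.59e-04). It was -5.67 without resistant replicate 1, -4.12 without resistant replicate 2 and -3.98 without normal replicate 1. Its closest relative Adcy6 had 61.0 and 56.0 CPM in resistant tumour CAFs, against 36.8 and 18.3 CPM in normal tumour CAFs, and missed the threshold (1.09 ± 0.42, adjusted p = 0.0722), which it passed with limma-voom (adjusted p = 0.0393). Adcy7, another βγ-stimulated form, had 73.5 and 68.8 CPM in resistant tumour CAFs, against 62.2 and 50.2 CPM in normal tumour CAFs (0.34 ± 0.34, adjusted p = 0.508). Adcy9, the cyclase least sensitive to forskolin, ran from 2.01 to 4.69 CPM over the libraries, with groups that overlapped.

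Per kilobase of exon the 10 cyclases together gave 33.4 and 27.5 CPM per kb in resistant tumour CAFs, against 20.8 and 12.9 CPM per kb in normal tumour CAFs. As a mean of 2 libraries, Adcy7 made up 34.9% of this sum in resistant tumour CAFs and 51.2% in normal tumour CAFs. The share of Adcy3 was 27.6% in resistant and 4.05% in normal tumour CAFs, and that of Adcy5 was 0.329% in resistant and 16.1% in normal tumour CAFs. Of the calcium-calmodulin-stimulated cyclases, Adcy1 was not tested and had 7 and 6 reads in resistant libraries, against 1 and 2 in normal libraries. The ratio was 8.07 with an exact 95% interval from 2.22 to 44.2. This interval, like those given below, covers counting error only and not variation between replicates. Adcy8 had at most 2 reads. Adcy10, the soluble, bicarbonate-stimulated form, had at most 3 reads, and Adcy2 had none.

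**Figure D2:**
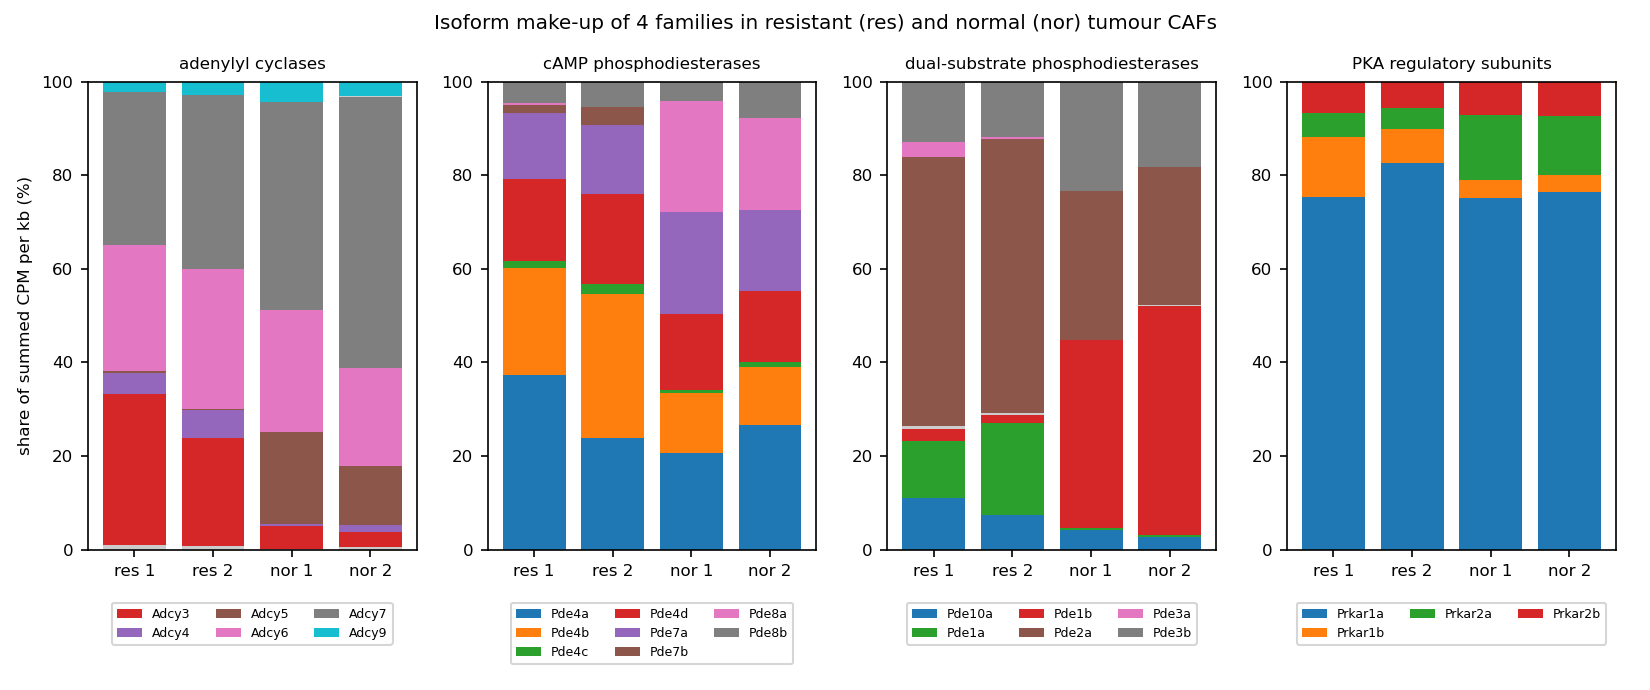
Stacked bars give the share (%) of each gene in the summed CPM per kb of its family in each library, for 4 families. Light grey marks genes with a very small share in every library. As a mean of 2 libraries Adcy3 took 27.6% of the cyclase sum in resistant tumour CAFs and 4.05% in normal tumour CAFs, and Pde1b took 2.19% of the dual-substrate phosphodiesterase sum in resistant tumour CAFs and 44.5% in normal tumour CAFs.

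PKA was carried by the same leading subunits in both groups. Prkacb, a catalytic subunit, had 290.0 and 244 CPM in resistant tumour CAFs, against 225 and 220.2 CPM in normal tumour CAFs (0.26 ± 0.24, adjusted p = 0.468). The other catalytic subunit Prkaca had 25.0 and 37.0 CPM in resistant tumour CAFs, against 25.4 and 38.1 CPM in normal tumour CAFs, ranges that overlapped. Prkar1a, the type I regulatory subunit, was the highest of the 56 genes in every library. It had 517 and 660.0 CPM in resistant tumour CAFs, against 425 and 385 CPM in normal tumour CAFs, and missed the threshold (0.54 ± 0.23, adjusted p = 0.0981), which it passed without resistant replicate 1 (adjusted p = 0.034).

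The called PKA genes were regulatory subunits and moved in opposite directions. Prkar1b, a type I subunit best known from brain, had 77.0 and 50.9 CPM in resistant tumour CAFs, against 19.0 and 16.5 CPM in normal tumour CAFs (1.85 ± 0.41, adjusted p = 0.00417). Prkar2a, the type II subunit that docks on anchoring proteins, had 53.1 and 52.0 CPM in resistant tumour CAFs, against 117 and 93.7 CPM in normal tumour CAFs (-1.003 ± 0.33, adjusted p = 0.0380). Neither passed without normal replicate 1 or normal replicate 2. The log2 fold changes in these 2 fits were 1.89 and 1.70 for Prkar1b and -0.90 and -1.19 for Prkar2a. Prkar2b, the type II subunit of brain and fat, had between 31.4 and 38.7 CPM in the libraries (0.24 ± 0.38, adjusted p = 0.691). In the sum of regulatory subunits per kilobase, Prkar1a made up 79.0% in resistant and 75.7% in normal tumour CAFs, Prkar1b 9.97% in resistant and 3.76% in normal tumour CAFs, and Prkar2a 4.82% in resistant and 13.3% in normal tumour CAFs.

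The A-kinase anchoring proteins hold PKA at its place in the cell. Of 18 in the list 14 were tested, 5 were called lower and none higher. The count of higher genes was 1 at an unadjusted p under 0.05 and 0 with DESeq2 and with limma-voom. Akap6, which anchors PKA at the nuclear envelope of muscle cells, had 1.14 and 0.732 CPM in resistant tumour CAFs, against 109.7 and 83.1 CPM in normal tumour CAFs (-6.64 ± 0.56, adjusted p = 8.03e-06). Map2, a microtubule protein of neurons that binds type II PKA, had 1.90 and 1.83 CPM in resistant tumour CAFs, against 93.1 and 91.3 CPM in normal tumour CAFs (-5.60 ± 0.49, adjusted p = 1.03e-05). Neither gene passed 1.90 CPM in a resistant library. The scaffold Akap12 had 144 and 136 CPM in resistant tumour CAFs, against 395 and 309 CPM in normal tumour CAFs (-1.33 ± 0.25, adjusted p = 0.00170), and missed the threshold without normal replicate 1 (adjusted p = 0.0614). The mitochondrial anchor Akap1 had 39.8 and 26.0 CPM in resistant tumour CAFs, against 81.0 and 90.3 CPM in normal tumour CAFs (-1.38 ± 0.37, adjusted p = 0.0142). Akap1 missed the threshold without normal replicate 1 (log2 fold change -1.53) and without normal replicate 2 (-1.34). The actin regulator Wasf1, the other gene called lower, had 17.4 and 14.6 CPM in resistant tumour CAFs, against 24.5 and 66.8 CPM in normal tumour CAFs (adjusted p = 0.0390), and lost the call in 6 alternatives. These were limma-voom (adjusted p = 0.0582), at least 50 reads in 2 libraries (0.0511), density offsets (0.0627) and leaving out resistant replicate 1 (0.0895), resistant replicate 2 (0.151) or normal replicate 2 (0.669). The log2 fold change of Wasf1 was -0.65 without normal replicate 2 and -2.12 without normal replicate 1. Of the PKA inhibitor peptides Pkia and Pkig were tested and neither was called (adjusted p = 0.332 and 0.948). Rapgef3, which encodes EPAC1, a cAMP receptor that acts without PKA, had 15.9 and 14.6 CPM in resistant tumour CAFs, against 0.741 and 0.503 CPM in normal tumour CAFs (4.59 ± 0.61, adjusted p = 1.37e-04).

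Of the 23 phosphodiesterases 12 were tested, 3 were called higher and 3 lower. Over all phosphodiesterases the sum was 66.7 and 52.0 CPM per kb in resistant tumour CAFs, against 73.0 and 66.8 CPM per kb in normal tumour CAFs, and without length scaling the groups overlapped with a ratio of 0.992. Of the cAMP-specific forms 7 were tested, 2 were called higher and 1 lower. Pde4b, of the rolipram-sensitive Pde4 family, had 86.1 and 80.5 CPM in resistant tumour CAFs, against 33.6 and 31.7 CPM in normal tumour CAFs (1.35 ± 0.35, adjusted p = 0.0117). It missed the threshold without normal replicate 1 (adjusted p = 0.219) and without normal replicate 2 (adjusted p = 0.276), while the log2 fold change stayed at 1.33 and 1.27. Pde7b, a rolipram-insensitive enzyme, had 20 and 32 reads in resistant libraries, against 1 and 0 in normal libraries. The ratio of its scaled levels was 96.9, with an exact 95% interval from 16.6 to 3899 (adjusted p = 2.45e-04), and without normal replicate 1 no normal read was left (adjusted p = 3.64e-05).

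Pde8a, a high-affinity cAMP enzyme that the inhibitor IBMX does not block, was the cAMP-specific form called lower. It had 1 and 0 reads in resistant libraries, against 96 and 114 in normal libraries. Its level in normal over resistant tumour CAFs was 112.7-fold, with an exact 95% interval from 20.0 to 4473 (adjusted p = 9.13e-05), and without resistant replicate 1 no resistant read was left (adjusted p = 0.00170). Its paralogue Pde8b overlapped between groups, at 9.86 and 8.05 CPM in resistant tumour CAFs and 5.93 and 10.9 CPM in normal tumour CAFs. Pde7a had 39.4 and 28.2 CPM in resistant tumour CAFs and 42.0 and 32.2 CPM in normal tumour CAFs, and was not called (adjusted p = 0.844). Pde4d, with 75.8 and 57.1 CPM in resistant tumour CAFs and 47.7 and 43.5 CPM in normal tumour CAFs, missed the threshold (0.54 ± 0.36, adjusted p = 0.291). Pde4a overlapped between groups, at 102.7 and 45.0 CPM in resistant tumour CAFs and 39.0 and 48.8 CPM in normal tumour CAFs. It passed without resistant replicate 2 (log2 fold change 1.22, adjusted p = 0.0187), while without resistant replicate 1 the log2 fold change was 0.039 (adjusted p = 0.937). Pde4c had between 4 and 8 reads in each library.

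**Figure D3:**
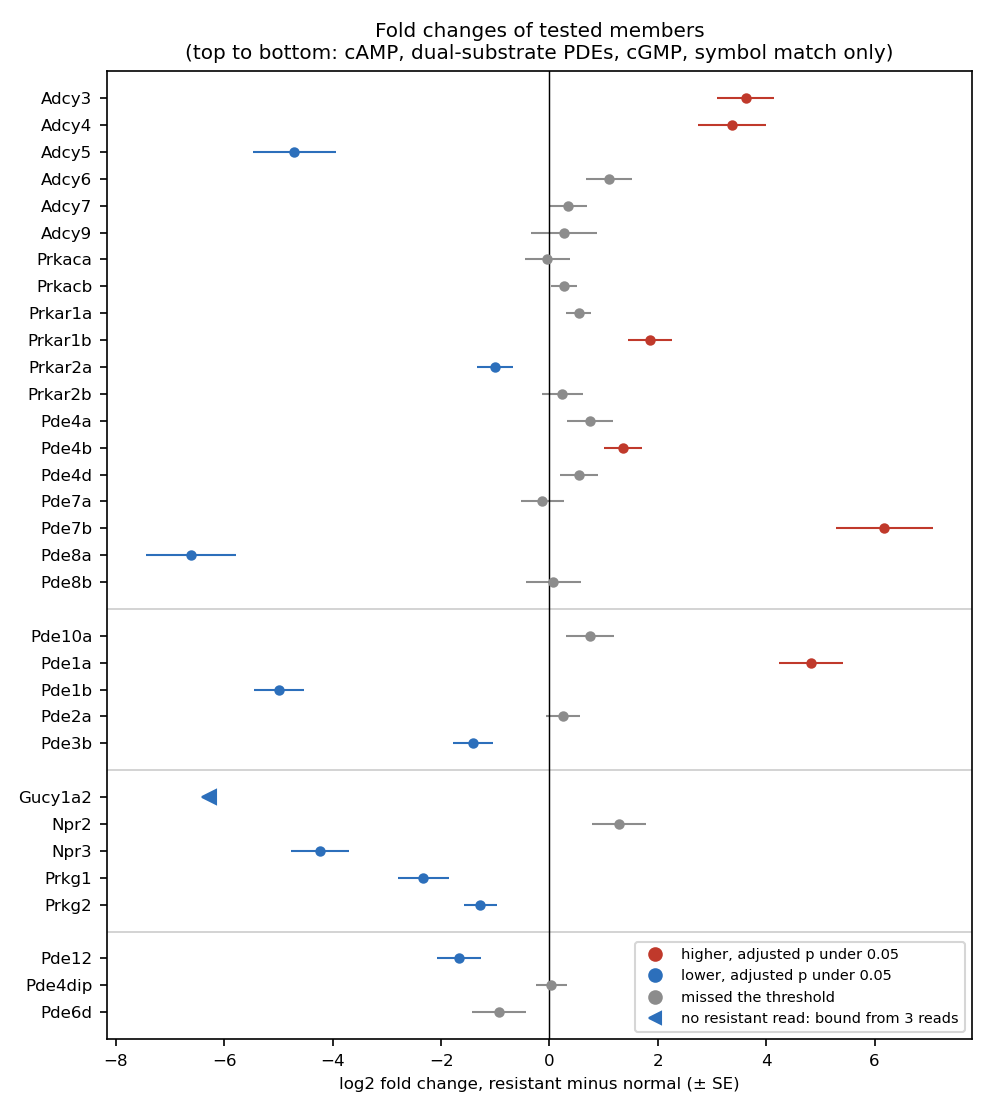
Log2 fold change, resistant minus normal, with its SE for the tested genes of each class; the triangle for Gucy1a2, which had no resistant read, marks the bound from 3 reads, and the fitted values of Pde7b and Pde8a rest on 1 read in the lower group. Pde1a (4.82), Adcy3 (3.62) and Prkar1b (1.85) lie on the higher side, and Pde1b (-4.98), Adcy5 (-4.71) and Npr3 (-4.23) on the lower side.

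Among the dual-substrate phosphodiesterases, 2 of the called genes belong to the calcium-calmodulin-stimulated Pde1 family and moved in opposite directions. Pde1a had 21.6 and 31.8 CPM in resistant tumour CAFs, against 1.23 and 0.671 CPM in normal tumour CAFs (4.82 ± 0.59, adjusted p = 7.37e-05). Pde1b had 4.17 and 2.56 CPM in resistant tumour CAFs, against 103 and 112 CPM in normal tumour CAFs (-4.98 ± 0.46, adjusted p = 1.34e-05). The groups did not overlap for either gene, while Pde1c had 8 and 6 reads in resistant libraries and 5 and 8 in normal libraries. In the dual-substrate sum per kilobase, Pde1a made up 15.9% in resistant and 0.348% in normal tumour CAFs, and Pde1b 2.19% in resistant and 44.5% in normal tumour CAFs.

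Pde3 enzymes, which cGMP inhibits, differed between their forms too. Pde3b, the form known from fat and liver, had 34.9 and 29.3 CPM in resistant tumour CAFs, against 101 and 69.98 CPM in normal tumour CAFs (-1.41 ± 0.37, adjusted p = 0.0126). It missed the threshold without normal replicate 1 (log2 fold change -1.19) and without normal replicate 2 (log2 fold change -1.69). Pde3a, the form known from heart, vessels and platelets, had 32 and 4 reads in resistant libraries and none in normal libraries, at least 22.4-fold higher in resistant tumour CAFs counting 3 reads over the normal group, and was below the filter of the test. The bound was 4.88-fold without resistant replicate 1 and 40.5-fold without resistant replicate 2. Pde2a, which cGMP stimulates, had 105 and 97.0 CPM in resistant tumour CAFs, against 93.4 and 76.9 CPM in normal tumour CAFs (0.25 ± 0.31, adjusted p = 0.609). Its share of the dual-substrate sum was 58.0% in resistant and 30.8% in normal tumour CAFs. Pde10a, best known from the striatum, had 42.1 and 25.6 CPM in resistant tumour CAFs, against 25.4 and 15.1 CPM in normal tumour CAFs, and was not called (adjusted p = 0.244). Pde11a had no read.

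On the side of cGMP synthesis, Gucy1a2, the α2 subunit of soluble guanylyl cyclase, had no read in either resistant library, against 200 and 237 reads in the normal libraries. Counting 3 reads over the group, resistant tumour CAFs were at least 78.2-fold lower (adjusted p = 2.26e-05). The other subunits were scarcely read in any library. Gucy1a3, the α1 subunit, had 2 reads and Gucy1b3, the β1 subunit with which either α subunit forms the known enzyme, had 1 read, all in resistant libraries. Gucy1b2, a further β subunit, had no read in resistant libraries, against 5 and 8 in normal libraries, at least 2.33-fold lower on the same count. The enzymes that supply nitric oxide were also low, with at most 7 reads of Nos1, Nos2 or Nos3 in any library. Of the 12 genes of that list 4 were tested and 1 was called, Ddah2, which degrades an inhibitor of nitric oxide synthases. It had 148 and 179.6 CPM in resistant tumour CAFs, against 48.4 and 46.7 CPM in normal tumour CAFs (1.78 ± 0.31, adjusted p = 9.09e-04).

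Among the natriuretic peptide receptors, Npr3, which clears the peptides and has no cyclase domain, had 1.52 and 2.93 CPM in resistant tumour CAFs, against 36.8 and 47.8 CPM in normal tumour CAFs (-4.23 ± 0.54, adjusted p = 9.81e-05). Npr2, the cyclase receptor for C-type natriuretic peptide, had 45.9 and 52.3 CPM in resistant tumour CAFs, against 30.4 and 10.2 CPM in normal tumour CAFs. The groups did not overlap, but normal replicates differed by 2.97-fold and the gene missed the threshold (1.29 ± 0.50, adjusted p = 0.0713). It passed with limma-voom (adjusted p = 0.0278) and without normal replicate 1 (log2 fold change 2.20, adjusted p = 0.0244), while without normal replicate 2 the log2 fold change was 0.66 (adjusted p = 0.679). Npr1, the receptor for the atrial and B-type peptides, had at most 4 reads. Of the 6 genes for the peptides and their processing 3 were tested. Nppb, the B-type peptide, had 1.14 and 1.46 CPM in resistant tumour CAFs, against 55.8 and 47.0 CPM in normal tumour CAFs (-5.27 ± 0.55, adjusted p = 2.62e-05). Ostn, which encodes musclin, a ligand of Npr3, was called higher, with 6.07 and 12.4 CPM in resistant tumour CAFs, against 1.23 and 1.68 CPM in normal tumour CAFs (2.62 ± 0.60, adjusted p = 0.00553). It missed the threshold without resistant replicate 2 (log2 fold change 2.01, adjusted p = 0.0773) and without normal replicate 1 (adjusted p = 0.0566). The membrane cyclases Gucy2c, Gucy2d, Gucy2f and Gucy2g, which serve the gut, the retina and olfactory cells, had at most 2 reads in any library, and Gucy2e had none.

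Both cGMP-dependent kinases were called lower. Prkg1, the soluble kinase of smooth muscle and fibroblasts, had 13.3 and 6.95 CPM in resistant tumour CAFs, against 61.3 and 41.0 CPM in normal tumour CAFs (-2.33 ± 0.47, adjusted p = 0.00246). Prkg2, the membrane-bound kinase of gut, bone and brain, had 72.0 and 71.7 CPM in resistant tumour CAFs, against 148 and 200.2 CPM in normal tumour CAFs (-1.28 ± 0.30, adjusted p = 0.00663). Prkg2 missed the threshold without normal replicate 2 (log2 fold change -1.08, adjusted p = 0.287). Per kilobase, Prkg2 made up 93.5% of the summed kinase level in resistant and 86.9% in normal tumour CAFs. Of 9 substrates of these kinases 7 were tested and 1 was called, Mrvi1, the protein through which Prkg1 acts on calcium release. It had 29.6 and 15.7 CPM in resistant tumour CAFs, against 0.988 and 0.839 CPM in normal tumour CAFs (4.598 ± 0.61, adjusted p = 1.31e-04). At an unadjusted p under 0.05, 4 of these substrates were higher and 0 lower. Itpr1 missed the threshold (1.32, adjusted p = 0.0632) and passed with DESeq2 (adjusted p = 0.0366). The actin regulator Vasp was not called (0.01, adjusted p = 0.984).

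No cGMP-specific phosphodiesterase reached the test. Pde5a, the target of sildenafil, had 11 and 5 reads in resistant libraries and 7 and 8 in normal libraries. Pde9a, the high-affinity cGMP enzyme, had at most 2 reads. Of the photoreceptor Pde6 subunits, Pde6a had 3 and 0 reads in resistant and 6 and 4 in normal libraries, Pde6b, Pde6g and Pde6h had at most 3 and Pde6c had none.

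**Figure D4:**
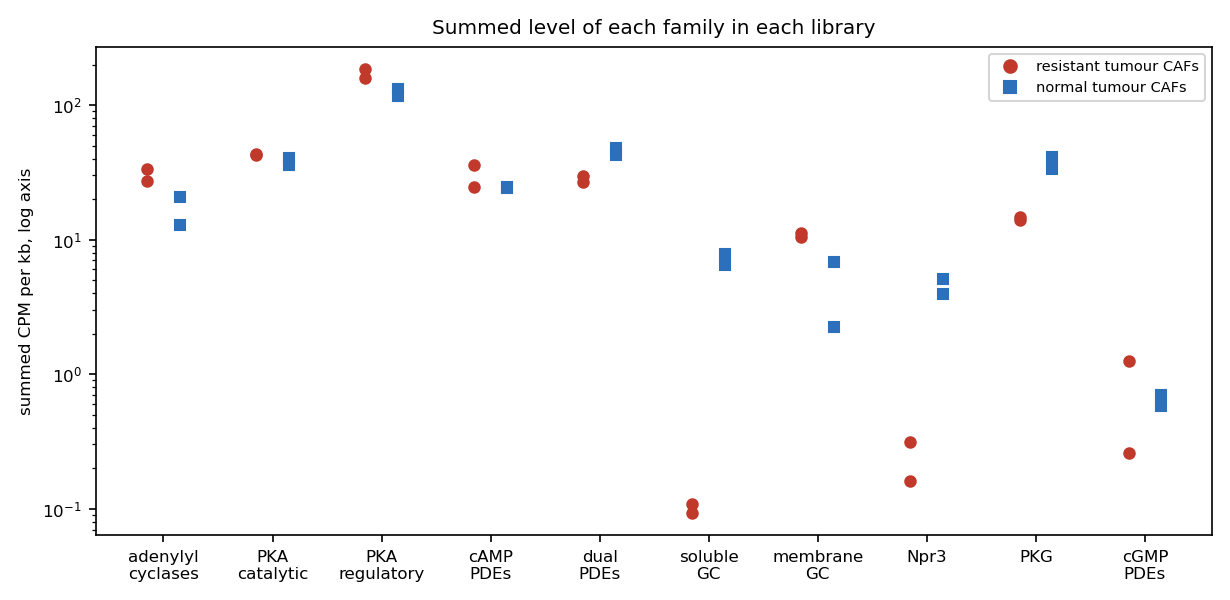
Summed CPM per kb of each family in each library, on a log axis, with resistant tumour CAFs as circles and normal tumour CAFs as squares. The soluble guanylyl cyclase subunits stood at 0.109 and 0.0932 CPM per kb in resistant tumour CAFs, against 7.88 and 6.47 CPM per kb in normal tumour CAFs. The groups overlapped narrowly for the cAMP-specific phosphodiesterases, with resistant replicate 2 at 24.72 and normal replicate 1 at 24.74 CPM per kb. They also overlapped for the cGMP-specific phosphodiesterases, which had few reads.

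Summed over a family per kilobase, the cGMP-dependent kinases stood at 14.6 and 14.0 CPM per kb in resistant tumour CAFs, against 33.2 and 41.1 CPM per kb in normal tumour CAFs. The dual-substrate phosphodiesterases stood at 29.6 and 27.0 CPM per kb in resistant tumour CAFs, against 47.6 and 42.2 CPM per kb in normal tumour CAFs. The cAMP-specific phosphodiesterases overlapped narrowly, at 35.9 and 24.7 CPM per kb in resistant tumour CAFs and 24.7 and 24.0 CPM per kb in normal tumour CAFs. Without length scaling they did not overlap. The PKA regulatory subunits were highest, at 159 and 185 CPM per kb in resistant tumour CAFs, against 131.0 and 117 CPM per kb in normal tumour CAFs.

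The genes that match by symbol only are given apart. Pde12 had 40.9 and 20.1 CPM in resistant tumour CAFs, against 93.9 and 101 CPM in normal tumour CAFs, and was called lower (-1.67 ± 0.40, adjusted p = 0.00757). Its log2 fold change was -2.27 without resistant replicate 1, and it missed the threshold without normal replicate 2 (adjusted p = 0.0608). Its exons share 6.82% of their bases with Arf4, which was not called (0.37, adjusted p = 0.279). Pde6d split the resistant replicates, at 65.2 and 17.6 CPM, against 75.6 and 81.6 CPM in normal tumour CAFs (-0.93 ± 0.50, adjusted p = 0.195), and passed without resistant replicate 1 (log2 fold change -2.15, adjusted p = 0.00254), while without resistant replicate 2 the log2 fold change was -0.27 (adjusted p = 0.430). Pde4dip had 193 and 145 CPM in resistant tumour CAFs and 183 and 146 CPM in normal tumour CAFs (adjusted p = 0.938).

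Downstream, 11 genes of the CREB pathway were tested, made up of transcription factors, coactivators and the salt-inducible kinases Sik1, Sik2 and Sik3. Of these 2 were called higher and 0 lower, against 15.5% and 13.9% of all genes tested. The count of lower genes was 1 at an unadjusted p under 0.05, the coactivator Crtc3, which limma-voom called (adjusted p = 0.0455) and DESeq2 did not. The histone acetyltransferase Crebbp had 303 and 195 CPM in resistant tumour CAFs, against 121 and 50.9 CPM in normal tumour CAFs (1.54 ± 0.39, adjusted p = 0.0100). The salt-inducible kinase Sik3, which PKA restrains, had 102 and 59.3 CPM in resistant tumour CAFs, against 38.5 and 15.1 CPM in normal tumour CAFs (1.59 ± 0.48, adjusted p = 0.0242). Both missed the threshold without resistant replicate 1 (adjusted p = 0.0712 for Crebbp and 0.126 for Sik3) and without normal replicate 2 (0.225 and 0.433), and without normal replicate 1 their log2 fold changes were 2.22 and 2.34. Creb1 itself was not called (-0.55, adjusted p = 0.259). Of 14 known CREB target genes 9 were tested, and 2 were called higher and 0 lower, against the same shares of all genes. The count of lower genes was also 0 at an unadjusted p under 0.05, with DESeq2 and with limma-voom. The clock gene Per1 had 113 and 62.2 CPM in resistant tumour CAFs, against 26.9 and 27.2 CPM in normal tumour CAFs (1.70 ± 0.40, adjusted p = 0.00635). The neurotrophin Bdnf had 61.8 and 65.5 CPM in resistant tumour CAFs, against 17.0 and 19.8 CPM in normal tumour CAFs (1.78 ± 0.38, adjusted p = 0.00376). Without normal replicate 1 or normal replicate 2 neither passed, at adjusted p = 0.115 and 0.119 for Per1 and 0.117 and 0.0682 for Bdnf. The immediate early targets Fos (-0.63, adjusted p = 0.359) and Nr4a1 (-0.43, adjusted p = 0.469) were not called. Of the exporters that pump cyclic nucleotides out of the cell, Abcc4 was called lower, at 39.8 and 18.3 CPM in resistant tumour CAFs, against 102 and 77.7 CPM in normal tumour CAFs (-1.63 ± 0.43, adjusted p = 0.0119). It missed the threshold without normal replicate 1 (adjusted p = 0.1005), its log2 fold change was -2.28 without resistant replicate 1, and Abcc5 was not called (0.87, adjusted p = 0.0648). None of the 6 cyclic nucleotide-gated channel genes had enough reads to be tested.

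**Figure D5:**
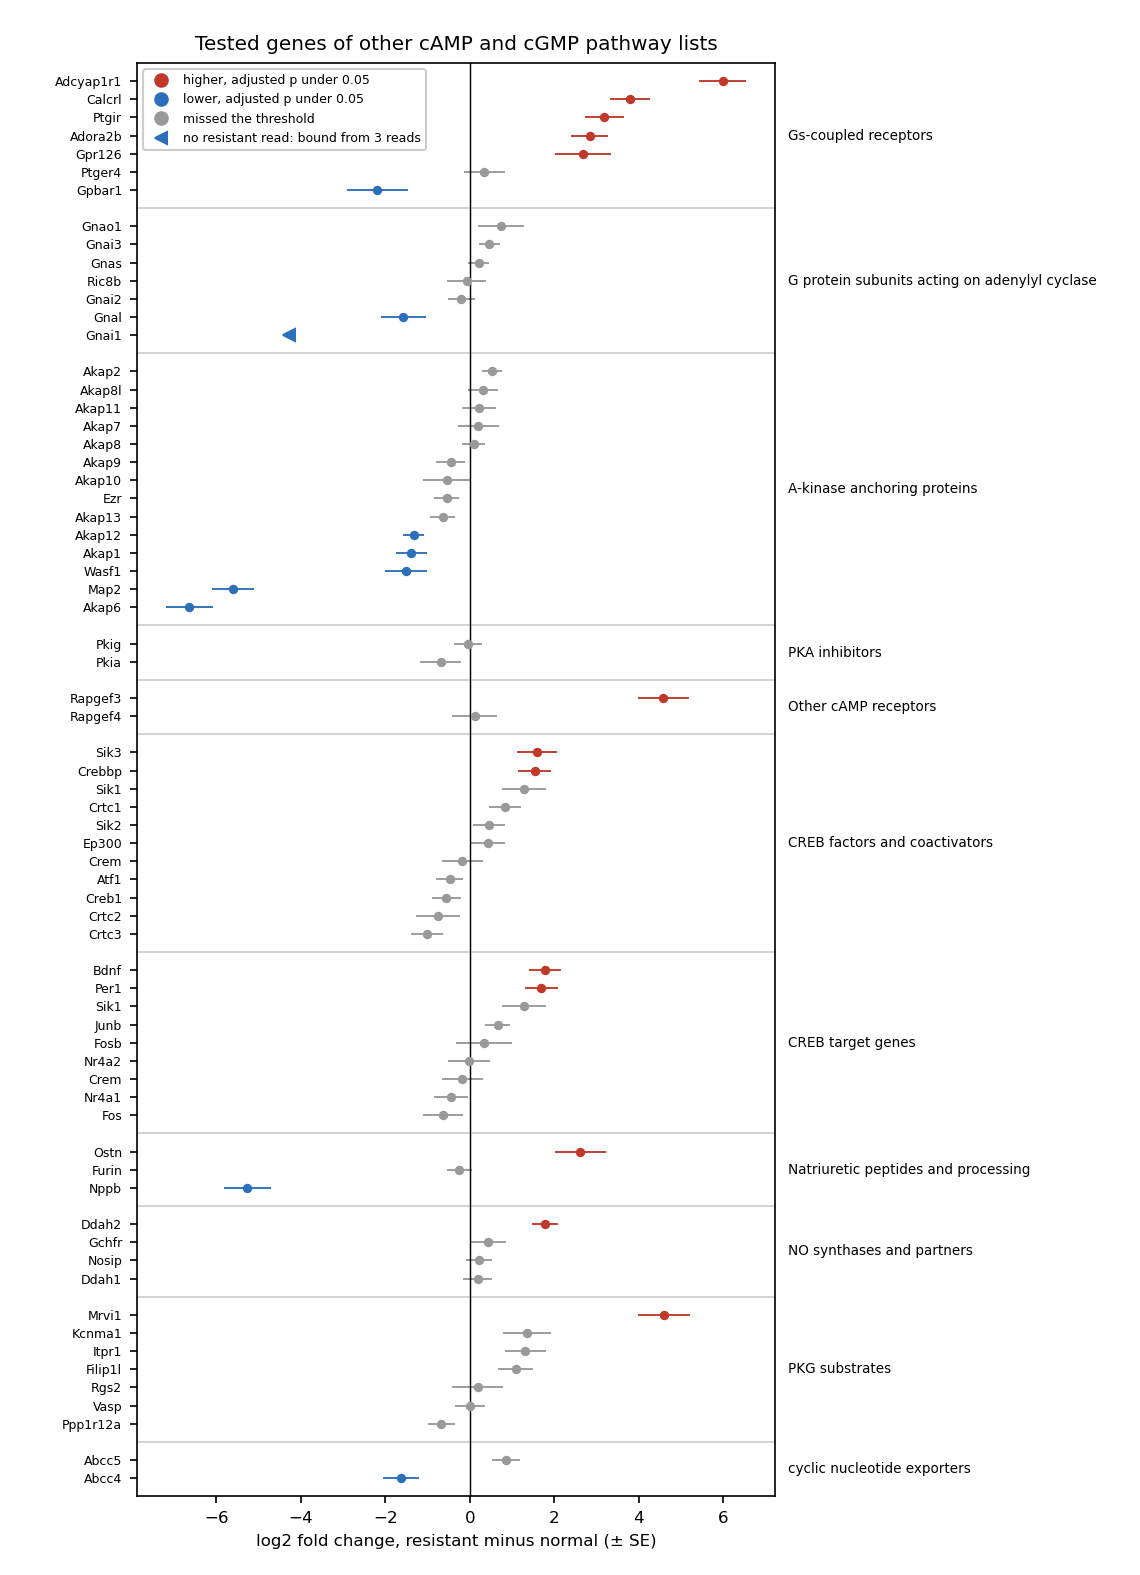
Log2 fold change, resistant minus normal, with its SE for the tested genes of the other cAMP and cGMP pathway lists; a triangle marks a bound for a gene with no resistant read. Receptors such as Adcyap1r1 (5.99) and Calcrl (3.79) lie on the higher side, and the anchoring proteins Akap6 (-6.64) and Map2 (-5.60) on the lower side.

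The authors' deposited table lists 48 of the 56 genes and gives 37 of them an adjusted p. The thresholds of the authors' deposited table, a log2 fold change of 2 in either direction with an adjusted p below 0.1, were passed by 10 of these 37, against 10.1% of all genes with an adjusted p there. Higher levels in resistant tumour CAFs were listed for 4 of these in the authors' deposited table (5.78% of all genes with an adjusted p) and lower levels for 6 (4.28%). Of these 10 genes in the authors' deposited table, 9 were called in the same direction by edgeR here, and the other, Pde3a, was below the filter. The remaining genes called by edgeR did not pass there. Adcy4 (log2 fold change 3.42) missed the limit on the adjusted p, at 0.225. Prkar1b, Pde12, Pde3b, Pde4b, Prkar2a and Prkg2 missed both limits, with log2 fold changes from -1.71 (Pde12) to 1.82 (Prkar1b). Prkar1b had a standard error of 0.43 there with an adjusted p of 0.411, against 0.00417 by edgeR here. The authors' test settings were not given, so the 2 kinds of adjusted p may not be alike. A gene that missed the limits there is therefore not shown to be unchanged.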

How the data were processed

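Polyadenylated RNA was sequenced from 4 CAF libraries, 2 resistant and 2 normal, grouped by title and phenotype label. The deposited counts are whole-number reads per gene symbol. Per the submitters' processing notes, their tools were HTSeq 0.7.2, Picard 1.62, TopHat2 2.1.1, DESeq2 and bcl2fastq 2 on mm9; annotation, settings and strand use were not given in the sources used here. In the authors' deposited table, log2 fold changes with standard errors are resistant over normal, and p-values are adjusted. The authors' normalized signal was not used.

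Counts were tested with edgeR 4.0.16 (R 4.3.3): filterByExpr with minimum count 10, trimmed mean of M values (TMM) scaling, and a quasi-likelihood F test, resistant minus normal, with the group as the only term. The SE is the fold change over the square root of F. Scripts were tested on simulated data. CPM uses TMM-scaled library sizes, and levels per kilobase use union exon lengths of GENCODE M21, found for all 56 genes. Folds against a group with no read are bounds from 3 reads over the group. With 1 to 3 reads in a group, a ratio has an exact 95% (Clopper-Pearson) interval, from reads summed over the 2 libraries of each group. It covers counting error only and not variation between replicates. Promoter windows were matched by symbol to RefSeq; mm9 coordinates were not used. All 56 genes are reported by class; of each pathway list, up to 4 called genes with the smallest adjusted p are named, and others named were chosen after their values were seen. Members and lists were chosen with earlier results of these data known. Alternatives were other scalings, filters and tests (DESeq2 1.42.0, limma 3.58.1 voom), a replicate block, offsets for read density (loess span 0.5), no length scaling, and leaving out each library.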

Additional observations from a re-analysis of the deposited data

How the results depend on the processing

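With 2 libraries in a group, a fit without 1 library assumes that the lone sample varies like the other group. The 56 genes gave 6 higher and 10 lower calls, and 5 to 8 higher and 6 to 11 lower without 1 library. Over all genes these ranges were 1078 to 2024 higher and 951 to 2323 lower, against 1857 and 1668. In the cAMP arm 3 genes were higher, in place of 5, with at least 50 reads asked in 2 libraries, and 3 to 6 higher and 2 to 3 lower without 1 library. In the cGMP arm the count of higher genes was 1 in place of 0 with upper-quartile scaling, no filter, limma-voom and the likelihood ratio test, and 0 to 1 without 1 library; the gene was Npr2 each time. Lower genes there numbered 3 to 4 without 1 library. Dual-substrate genes called higher were 2 in place of 1 with no filter, by Pde3a, and 1 to 2 without 1 library, where 1 to 2 were lower.

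No label pairs the replicate numbers, and replicate differences correlated at 0.217 between groups, over 2 pairs. With a replicate block the 56 genes gave 8 higher and 11 lower, the cGMP arm 1 higher, and all genes 2257 higher and 2267 lower.

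Of the 16 called genes, 10 passed in every alternative in which they were tested and 6 missed the threshold in at least 1: Pde12, Pde3b, Pde4b, Prkar1b, Prkar2a and Prkg2. Prkar2a also missed it with at least 50 reads (adjusted p = 0.0505) and with density offsets (adjusted p = 0.0532). None of the 16 reversed. The reversals were among genes not called. Without 1 library the log2 fold change ran from -0.30 to 0.88 for Adcy9, -0.17 to 0.23 for Pde4dip, -0.39 to 0.091 for Pde7a, -0.35 to 0.55 for Pde8b and -0.36 to 0.25 for Prkaca. With density offsets it was -0.37 for Adcy9, -0.27 for Pde8b and 0.11 for Prkaca, with library totals -0.101 for Pde4dip and -0.076 for Pde8b, and with no filter -0.021 for Pde4dip. The cause was not tested. Library totals moved the median of all genes to -0.14. Without length scaling Pde2a made up 49.0% of the dual-substrate sum in resistant tumour CAFs, Pde1b 36.1% in normal tumour CAFs and Prkar1a 72.3% of the regulatory subunits in normal tumour CAFs, and the cAMP phosphodiesterase sum no longer overlapped, with a ratio of 1.47 in place of 1.24. At these depths the 20 genes with reads that were not tested allow no statement on a difference beyond their bounds and intervals. Those cover counting error only and not variation between replicates.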
